A study of Homo sapiens with 3 samples.

Results

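The genes described here code for the U1 small nuclear RNA and the U3 small nucleolar RNA, and the data are the MEIS1 ChIP-seq peaks assigned to them in 2 derivatives of the prostate cancer line CWR22Rv1. Members were the peaks whose Gene Name in the deposited annotation was RNU1-1, RNU1-2, RNU1-3, RNU1-4, RNU1-18, SNORD3A, SNORD3B-1, SNORD3B-2, SNORD3C or SNORD3D. By this rule 13 of 5968 peaks in LV-MEIS1 cells and 19 of 2047 peaks in HOXB13ko-LV-MEIS1 cells were members, 32 of 8015 in all. These genes were selected because their peaks stood high in the HOXB13ko-LV-MEIS1 list, so the heights in that list, and every comparison of height with the other list, are a description and were not tested. LV-MEIS1 cells carry a lentiviral construct that expresses MEIS1, a homeodomain protein of the TALE class that binds DNA together with HOX proteins. HOXB13ko-LV-MEIS1 cells carry the same construct after CRISPR knockout of HOXB13, the prostate HOX factor, in a pool recombined from several clonal knockout lines. Both lines therefore share exogenous MEIS1 and differ in HOXB13. A single peak list was called per line, from 3 pooled immunoprecipitations for LV-MEIS1 (202428594 tags) and 2 for HOXB13ko-LV-MEIS1 (105763683 tags), against a single CWR22Rv1 input library of 39102495 tags. Because the immunoprecipitations were pooled, no spread between replicates could be computed, no test between the lines was run, and the intervals below cover counting error only. The study's text counts more LV-MEIS1 peaks than the list analysed here holds, for a reason not given in the sources used here, so ranks, shares and the lack of a peak refer to the lists analysed. A ChIP-seq peak list holds no expression values, so neither the cell type nor the knockout was checked against marker genes.

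U1 RNA is the part of the spliceosome that base-pairs with the 5′ splice site of pre-mRNA. Its genes are present in several copies and are transcribed by RNA polymerase II from compact promoters. These hold a distal enhancer element and a proximal sequence element bound by the SNAPc complex. A 3′ box downstream of the gene directs formation of the RNA 3′ end. U3 RNA guides early cleavages of the ribosomal RNA precursor in the nucleolus, and its human genes have promoters of the same kind. A MEIS protein on its own recognizes the core TGACA.

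To see what the peaks cover, the U1 and U3 genes were first located by sequence. In hg38, 9 places outside alternate sequences matched the 164 bp gene of RNU1-1 over its whole length without a mismatch, and 5 matched the 217 bp gene of SNORD3A at 98.6% identity or above. In GENCODE the U1 copies are RNU1-1 (chr1:16514122-16514285), RNU1-3 (chr1:16666785-16666948), RNU1-4 (chr1:16740516-16740679), RNU1-2 (chr1:16895980-16896143), RNVU1-18 (chr1:143729407-143729570), RNVU1-29 (chr1:146376807-146376970), RNU1-27P (chr14:34546714-34546877), RNU1-28P (chr14:34556226-34556389) and a copy on an unlocalised sequence of chromosome 1 that has no gene name there. The U3 genes are SNORD3A (chr17:19188016-19188232), SNORD3B-1 (chr17:19061912-19062128), SNORD3B-2 (chr17:19063920-19064136), SNORD3C (chr17:19190029-19190245) and SNORD3D (chr17:19112420-19112636). All 14 copies held a peak in both lists. By name, 6.51% of RefSeq gene symbols had a peak in LV-MEIS1 cells and 2.53% in HOXB13ko-LV-MEIS1 cells. The genes were chosen for their peaks and the copies share sequence, so nothing is read from this count.

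Since the genes themselves are identical, the flanks carry the differences between copies. The following stretches lie from 300 to 211 bp before the first base of each U1 gene, on the strand of the gene. The upstream LV-MEIS1 summits of 5 copies fell in this stretch and that of RNVU1-29 just before it, while RNVU1-18 and RNU1-28P, shown for contrast, had no upstream summit. Capitals mark TGACA. RNU1-3, RNU1-4 and the unlocalised copy shared a single sequence here, as did RNU1-27P and RNU1-28P.
RNU1-1 (chr1:16514496-16514585, minus strand): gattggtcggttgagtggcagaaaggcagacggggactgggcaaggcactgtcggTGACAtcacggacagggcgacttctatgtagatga
RNU1-4 (chr1:16740216-16740305, plus strand): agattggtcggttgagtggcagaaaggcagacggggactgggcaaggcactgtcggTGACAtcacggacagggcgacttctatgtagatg
RNU1-2 (chr1:16895680-16895769, plus strand): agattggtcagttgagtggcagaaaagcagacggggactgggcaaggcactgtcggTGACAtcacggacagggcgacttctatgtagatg
RNVU1-18 (chr1:143729781-143729870, minus strand): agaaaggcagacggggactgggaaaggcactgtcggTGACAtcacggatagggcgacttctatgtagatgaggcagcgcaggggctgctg
RNVU1-29 (chr1:146376507-146376596, plus strand): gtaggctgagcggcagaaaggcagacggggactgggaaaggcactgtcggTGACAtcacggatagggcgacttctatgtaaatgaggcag
RNU1-28P (chr14:34556600-34556689, minus strand): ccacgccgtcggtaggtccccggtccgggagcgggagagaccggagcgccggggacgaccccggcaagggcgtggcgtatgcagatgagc

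The HOXB13ko-LV-MEIS1 summits fell at the other end of the gene. The whole RNU1-1 gene is shown first, with the start of its 3′ flank. The corresponding last 60 bases follow for 3 other copies, to show where their flanks part after the identical gene. Capitals mark a match to the 3′ box, searched as GTTT, 0 to 3 bases, then AAANNNAGA.
RNU1-1 (chr1:16514076-16514285, minus strand): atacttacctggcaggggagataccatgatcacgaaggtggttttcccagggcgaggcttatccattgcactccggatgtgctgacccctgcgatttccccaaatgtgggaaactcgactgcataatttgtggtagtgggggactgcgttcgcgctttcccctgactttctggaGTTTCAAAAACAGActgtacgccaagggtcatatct
RNU1-2 (chr1:16896130-16896189, plus strand): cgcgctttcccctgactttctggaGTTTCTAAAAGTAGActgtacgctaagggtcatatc
RNVU1-29 (chr1:146376957-146377016, plus strand): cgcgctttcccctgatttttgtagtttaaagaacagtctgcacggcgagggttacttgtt
RNU1-28P (chr14:34556180-34556239, minus strand): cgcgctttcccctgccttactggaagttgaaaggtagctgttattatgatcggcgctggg

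At U3 the summits of both lists fell around the 3′ end. SNORD3A, SNORD3B-2 and SNORD3C shared the first of the 90-base sequences below, which starts 190 bp after the first base, and SNORD3B-1 and SNORD3D shared the second. Capitals mark TGACA.
SNORD3A (chr17:19188206-19188295, plus strand): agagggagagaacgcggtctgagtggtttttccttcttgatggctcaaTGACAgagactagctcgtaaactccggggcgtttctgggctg
SNORD3D (chr17:19112357-19112446, minus strand): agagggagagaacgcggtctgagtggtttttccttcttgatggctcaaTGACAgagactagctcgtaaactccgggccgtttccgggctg

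The Gene Name column did not tell the U1 copies apart. Of the 11 LV-MEIS1 peaks at the 9 identical U1 copies, 2 carried the name of the copy they lay on, and of the 9 HOXB13ko-LV-MEIS1 peaks 1 did. The peak on RNU1-28P, for example, was named RNU1-3 in LV-MEIS1 cells and RNU1-1 in HOXB13ko-LV-MEIS1 cells. The peaks on RNU1-4 were named RNVU1-18 in both lists. For U3, 4 of 5 peaks had the matching name in each list, and the peak on SNORD3B-1 was named SNORD3B-2 in both. No row of either list was named RNU1-18 or SNORD3B-1. In what follows each peak is therefore given by the copy it lies on, which covers 16 peaks in LV-MEIS1 cells and 14 in HOXB13ko-LV-MEIS1 cells. Of these, 11 and 13 were member rows by name.

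Taken by name, the 13 LV-MEIS1 rows had a median pileup of 31.7 (16.8 to 45.2), beside 28.4 over all peaks of that list. The 19 HOXB13ko-LV-MEIS1 rows had a median of 61.4 (23.7 to 93.5), beside 26.99 over all peaks. Of these rows, 12 of 13 and 17 of 19 overlapped a peak of the other list, and 10 of 13 and 7 of 19 had TGACA within 50 bp of the summit. The shares over all peaks are given with the same counts by copy.

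On 6 of the 7 identical U1 copies of chromosome 1, the highest summit lay upstream of the gene in LV-MEIS1 cells and toward its 3′ end in HOXB13ko-LV-MEIS1 cells. On RNU1-1, the summit lay 261 bp upstream of the first base in LV-MEIS1 cells and 176 bp downstream of it in HOXB13ko-LV-MEIS1 cells. On RNU1-3, the corresponding positions were 284 bp upstream and 124 bp downstream. On RNU1-4 they were 288 bp upstream and 136 bp downstream. The unlocalised copy belonged with these genes, with summits 284 bp upstream and 156 bp downstream. RNU1-2 and RNVU1-29 each held an upstream and a downstream peak in LV-MEIS1 cells. On RNU1-2 the LV-MEIS1 summits lay 288 bp upstream and 251 bp downstream, and the HOXB13ko-LV-MEIS1 summit 126 bp downstream. On RNVU1-29 they lay 305 bp upstream and 187 bp downstream in LV-MEIS1 cells and 126 bp downstream in HOXB13ko-LV-MEIS1 cells. On both, the higher LV-MEIS1 peak was the upstream one. Summit positions leave out the extent of the peaks. The LV-MEIS1 peak ran from 394 bp upstream to 424 bp downstream on RNU1-1, and from 436 to 258 bp on RNU1-3. It ran from 435 to 208 bp on RNU1-4 and from 427 to 354 bp on the unlocalised copy. Each of these peaks covered the HOXB13ko-LV-MEIS1 summit. On RNU1-4 the HOXB13ko-LV-MEIS1 peak, from 357 bp upstream to 703 bp downstream, covered the LV-MEIS1 summit as well.

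The remaining 3 identical U1 copies had no upstream peak in either list. The LV-MEIS1 summit lay 103 bp after the first base on RNVU1-18, 83 bp on RNU1-27P and 193 bp on RNU1-28P. In HOXB13ko-LV-MEIS1 cells the summits lay at 114, 176 and 175 bp. All 9 HOXB13ko-LV-MEIS1 summits therefore fell between 114 and 176 bp, in the 3′ part of the gene or just beyond it. Taking the highest LV-MEIS1 peak at each copy, the summits of the lists were over 200 bp apart on 6 of 9 U1 copies. Counting only LV-MEIS1 peaks that overlap the HOXB13ko-LV-MEIS1 peak, which on RNVU1-29 leaves the downstream one, this held for 5 of 9. Counted in that way, among all 456 HOXB13ko-LV-MEIS1 peaks that overlapped an LV-MEIS1 peak, 9.43% had summits over 200 bp apart and the median distance was 27 bp.

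**Figure D1:**
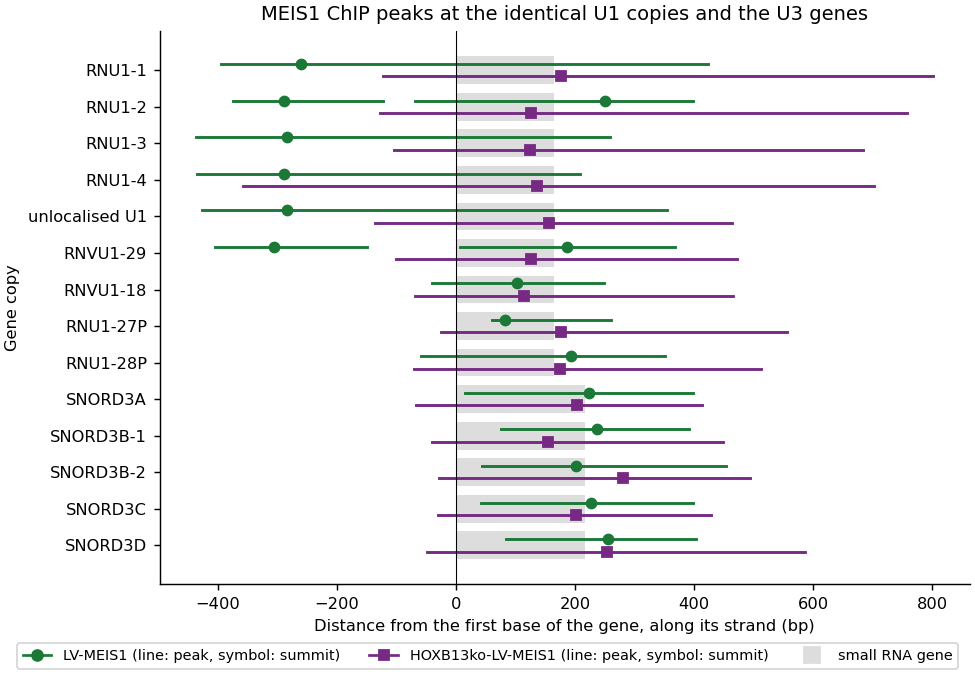
Extent (line) and summit (symbol) of every peak at the 9 identical U1 copies and the 5 U3 genes, as distance in bp from the first base of the gene along its strand; the grey bar is the gene, green circles are LV-MEIS1 and purple squares HOXB13ko-LV-MEIS1. On 6 U1 copies an LV-MEIS1 summit lies 261 to 305 bp upstream, while all 9 HOXB13ko-LV-MEIS1 summits lie 114 to 176 bp downstream, and at U3 both lists have their summits near the 3′ end.

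The annotation classes shifted with these positions. Of the LV-MEIS1 peaks on identical U1 copies, 7 of 11 were classed promoter-TSS, the 6 upstream peaks and that on RNU1-27P, and 4 TTS (near the transcription end site), whereas all 9 HOXB13ko-LV-MEIS1 peaks were classed TTS. Across the lists, promoter-TSS covered 20.2% of LV-MEIS1 peaks and 24.5% of HOXB13ko-LV-MEIS1 peaks, and TTS covered 1.46% and 3.08%. All 5 U3 peaks were classed TTS in both lists.

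Peaks of the lists overlapped on the copies even where their summits did not. All 14 HOXB13ko-LV-MEIS1 peaks overlapped an LV-MEIS1 peak by at least 1 bp, as did 15 of the 16 LV-MEIS1 peaks in the other direction, the upstream peak of RNVU1-29 being the exception. In the whole lists 22.3% of HOXB13ko-LV-MEIS1 peaks and 7.66% of LV-MEIS1 peaks did so. With summits required to lie within 100 bp of each other, 9 of the 14 and 9 of the 16 still matched, beside 18.7% and 6.4% of all peaks of the lists.

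At U3, unlike U1, the summits of the lists lay close together. On SNORD3A the summit lay 224 bp after the first base in LV-MEIS1 cells and 203 bp in HOXB13ko-LV-MEIS1 cells. On SNORD3C the positions were 227 and 201 bp, and on SNORD3D 256 and 254 bp. SNORD3B-1 and SNORD3B-2, which face each other tail to tail, differed more and in opposite directions. The SNORD3B-1 summit lay at 237 bp in LV-MEIS1 cells and 154 bp in HOXB13ko-LV-MEIS1 cells, and the SNORD3B-2 summit at 202 and 280 bp. No U3 gene had an upstream peak in either list, and on none were the summits over 200 bp apart.

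Peak height was read from the pileup, the number of extended reads over the summit scaled to the size of the input library. Because the scale factor is given by the tag counts, each pileup could be turned back into a whole number of reads, to within 0.0258 reads in LV-MEIS1 cells and 0.0135 in HOXB13ko-LV-MEIS1 cells. On RNU1-1, 164 reads in LV-MEIS1 cells gave a pileup of 31.7 (95% counting interval 27.02 to 36.9) and 194 reads in HOXB13ko-LV-MEIS1 cells gave 71.7 (62.0 to 82.6). On RNU1-2 the highest pileup was 25.9 (21.7 to 30.7) against 70.3 (60.6 to 81.0). On RNU1-3 it was 38.3 (33.1 to 43.96) against 61.4 (52.4 to 71.5). RNU1-4 was similar, with 42.3 (36.9 to 48.3) against 66.6 (57.2 to 77.0). The unlocalised copy held the highest pileup of all copies in both lists, 45.2 (39.6 to 51.4) against 93.5 (82.4 to 105.8). On RNVU1-29 the highest pileup was 27.4 (23.1 to 32.3) against 78.01 (67.8 to 89.3).

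The 3 copies without an upstream peak were the lowest U1 copies in LV-MEIS1 cells but not in HOXB13ko-LV-MEIS1 cells. RNVU1-18 had a pileup of 18.7 in LV-MEIS1 cells and 62.9 in HOXB13ko-LV-MEIS1 cells. RNU1-27P had 17.4 and 69.9. RNU1-28P had 16.8 and 71.7, or 87 and 194 reads. On the 5 identical U1 copies with a downstream peak in LV-MEIS1 cells its pileup was between 16.8 and 22.4, and the upstream peaks ranged from 25.9 to 45.2. The HOXB13ko-LV-MEIS1 peaks, all downstream and at genes chosen for their height in that list, ranged from 61.4 to 93.5. With at most 400 reads at a summit, a pileup could not exceed 77.3 in LV-MEIS1 cells or 147.9 in HOXB13ko-LV-MEIS1 cells, so the 2 highest of these values could not occur in the LV-MEIS1 list.

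U3 genes spanned a narrower range. SNORD3A had a pileup of 35.4 (30.4 to 40.9) in LV-MEIS1 cells and 65.1 (55.8 to 75.4) in HOXB13ko-LV-MEIS1 cells. SNORD3D had 39.6 and 62.9, SNORD3B-2 38.4 and 60.3, and SNORD3B-1 30.7 and 51.0. SNORD3C was the lowest in HOXB13ko-LV-MEIS1 cells at 42.5 (35.1 to 51.0), against 31.5 (26.8 to 36.7) in LV-MEIS1 cells. Its counting intervals in the lists overlapped. The genes were chosen for their height in HOXB13ko-LV-MEIS1 cells, so nothing is read from intervals that do not overlap.

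**Figure D2:**
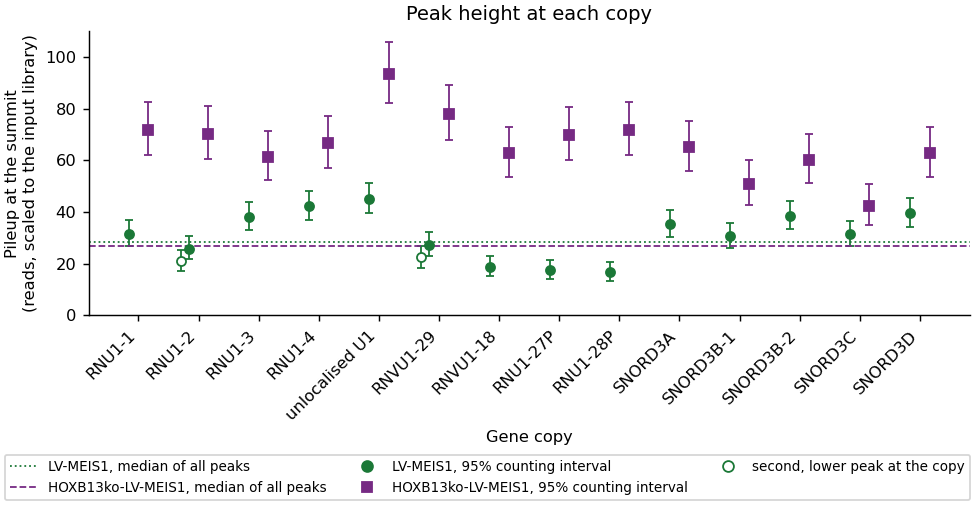
Pileup at the summit, in reads scaled to the input library, for each copy in LV-MEIS1 (green circles, open for the lower of 2 peaks) and HOXB13ko-LV-MEIS1 (purple squares) cells; bars are 95% counting intervals and lines the medians over all peaks of each list. The HOXB13ko-LV-MEIS1 value is above the LV-MEIS1 value at all 14 copies, from 42.5 on SNORD3C to 93.5 on the unlocalised U1 copy.

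At all 14 copies the pileup was higher in HOXB13ko-LV-MEIS1 cells. The ratio of the highest peaks, given with its counting interval as a description, had a median of 2.71 over the U1 copies, from 1.57 on RNU1-4 (1.28 to 1.92) to 4.27 on RNU1-28P (3.30 to 5.56), and of 1.59 over the U3 genes, from 1.35 on SNORD3C (1.05 to 1.72) to 1.84 on SNORD3A (1.49 to 2.28). Among the 456 overlapping pairs of the lists, 28.7% were higher in HOXB13ko-LV-MEIS1 cells, and the median ratio was 0.710. The members were chosen on their height in HOXB13ko-LV-MEIS1 cells, so nothing is read from this count. On the 6 copies with an upstream LV-MEIS1 summit the ratio compares different positions.

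Within its own list, a U1 peak stood high in HOXB13ko-LV-MEIS1 cells and anywhere in LV-MEIS1 cells. By pileup the U1 peaks ranked 25 to 101 of 2047 in HOXB13ko-LV-MEIS1 cells and 704 to 5913 of 5968 in LV-MEIS1 cells. The U3 peaks ranked 91 to 282 and 1137 to 2467. By fold enrichment, in which the pileup is divided by the local input level, each with 1 added, the order was sharper. RNU1-28P and RNU1-27P then ranked 1 and 2 in HOXB13ko-LV-MEIS1 cells, with 18.7-fold and 18.2-fold, and SNORD3A ranked 4 with 16.96-fold. Of the 100 highest fold enrichments of that list, 13 lay at the 14 copies, which held 14 of its 2047 peaks. In LV-MEIS1 cells 0 of the 100 highest did, and the copies held 16 of 5968 peaks. The genes were chosen for their height in HOXB13ko-LV-MEIS1 cells, so nothing is read from this contrast. In LV-MEIS1 cells RNU1-28P had 4.57-fold and SNORD3A 9.33-fold. The local input level, worked back from pileup and fold enrichment, was 1.00 to 1.86 times the genome average at the peaks on the 14 copies. Its median over all peaks was 1.15 in LV-MEIS1 and 1.10 in HOXB13ko-LV-MEIS1 cells. The peak caller does not let this level fall below the genome average. A value of 1.00, as on RNU1-28P and RNU1-27P in HOXB13ko-LV-MEIS1 cells, therefore means input at or below that average.

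**Figure D3:**
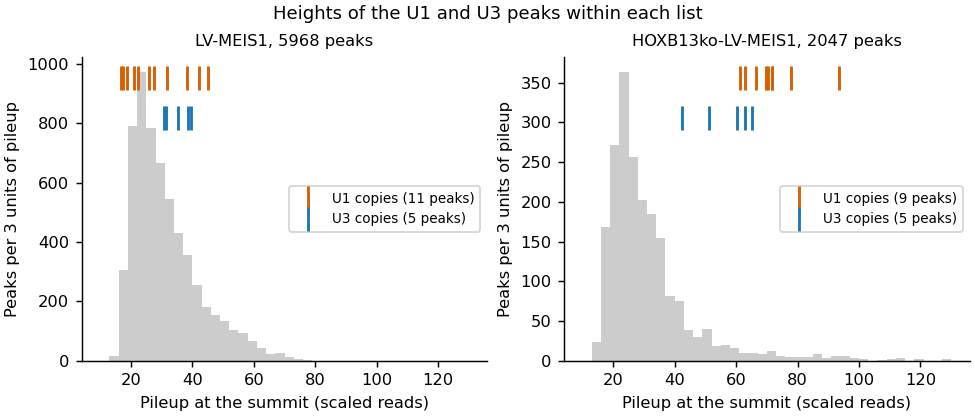
Histograms of the pileup at the summit (scaled reads) over all 5968 LV-MEIS1 peaks and all 2047 HOXB13ko-LV-MEIS1 peaks, with ticks for the peaks at U1 copies (orange) and U3 genes (blue). The ticks spread over the bulk of the LV-MEIS1 list, from 16.8 to 45.2, and sit in the upper tail of the HOXB13ko-LV-MEIS1 list, from 42.5 to 93.5.

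The MEIS core TGACA lay within 50 bp of most upstream LV-MEIS1 summits at the identical U1 copies, and of most U3 summits in both lists. In LV-MEIS1 cells 5 of the 6 upstream U1 summits had TGACA within 50 bp on either strand, and the sixth, on RNVU1-29, lay 57 bp from it. RNU1-3, RNU1-4 and the unlocalised copy have the same sequence around this core, so their summits are not independent cases. At the other U1 copies described below, 4 of 9 upstream LV-MEIS1 summits had the core within 50 bp. None of the 5 downstream U1 summits of LV-MEIS1 cells and none of the 9 of HOXB13ko-LV-MEIS1 cells had the core within 50 bp. At U3, it lay within 50 bp of the summit on 5 of 5 genes in LV-MEIS1 cells and 4 of 5 in HOXB13ko-LV-MEIS1 cells, where the SNORD3B-1 summit was 86 bp away. Over the whole lists 56.1% of LV-MEIS1 summits and 16.8% of HOXB13ko-LV-MEIS1 summits had the core, and 38.9% of RefSeq promoter windows of 300 bp (hg38 gene starts, 250 bp before to 50 bp after) held it. A match of these letters is a description of sequence and not evidence of binding.

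The core sat in a fixed place. In 7 of the 9 identical U1 copies it began 244 to 264 bp upstream of the first base, within the longer word TGACATCA, which was picked after the sequences were seen and occurred within 50 bp of 1.09% of LV-MEIS1 and 0.195% of HOXB13ko-LV-MEIS1 summits. It was missing from the 400 bp upstream of RNU1-27P and RNU1-28P, the chromosome 14 copies shown above without capitals in that stretch, and neither had an upstream peak. RNVU1-18 did hold the core, 264 bp upstream, but had no upstream peak. In the 5 U3 genes the core began 238 bp after the first base. The U3 genes also held it on the opposite strand 240 and 148 bp upstream, where no peak was called, and 6 of the 7 U1 copies that held TGACATCA had it once more on that strand nearer the gene, without a summit beside it.

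The other promoter words were present at some copies and not at others. The proximal element word, written as ACC, any base, T, any 6 bases and AAAG, began 59 bp upstream in the 7 copies on chromosome 1 sequences and was not found in RNU1-27P or RNU1-28P, whose sequence over the same place is shown after that of RNU1-1, with the match in capitals.
RNU1-1 (chr1:16514321-16514360, minus strand): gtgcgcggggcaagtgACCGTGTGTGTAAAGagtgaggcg
RNU1-28P (chr14:34556425-34556464, minus strand): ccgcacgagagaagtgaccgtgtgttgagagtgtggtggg

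This word was present in 0.695% of RefSeq promoter windows. Neither this word nor the 3′ box word was found within 400 bp of the first base of any U3 gene. The 3′ box word began 174 bp after the first base in RNU1-1, RNU1-2, RNU1-3, RNU1-4 and the unlocalised copy. It was present in 0.379% of RefSeq promoter windows, which end 50 bp after the start and so do not reach that place. The copies were searched over 400 bp to each side of the first base, a longer stretch than those windows. The exact octamer ATTTGCAT of distal elements was not found within 400 bp of any of the 14 copies, and was present in 1.77% of RefSeq promoter windows. Near matches to it were not searched for.

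Reads of 50 bases cannot always be placed at a single copy, and the peaks rest on such reads to different degrees. Every 50-base word within 200 bp of each summit was therefore counted in all of hg38, alternate sequences included, on both strands. Inside the U1 gene no word was unique, and each occurred 10 to 14 times. In the 200 bp after the gene, 100% of words were unique on RNVU1-29, 93.4% on RNU1-1 and 86.1% on RNU1-2, but 0% on RNU1-3, RNU1-4, RNVU1-18, RNU1-27P and RNU1-28P. Around the summits, the share of unique words ranged from 0% to 62.5% in LV-MEIS1 cells and from 0% to 54.3% in HOXB13ko-LV-MEIS1 cells over the U1 copies, and from 1.14% to 17.05% and 1.14% to 15.3% over the U3 genes. In the whole lists, every word was unique around 88.2% of LV-MEIS1 summits and 52.4% of HOXB13ko-LV-MEIS1 summits, and around none of the summits at the 14 copies. How reads were shared among copies was not tested, so the pileup of an individual copy may include reads of another.

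**Figure D4:**
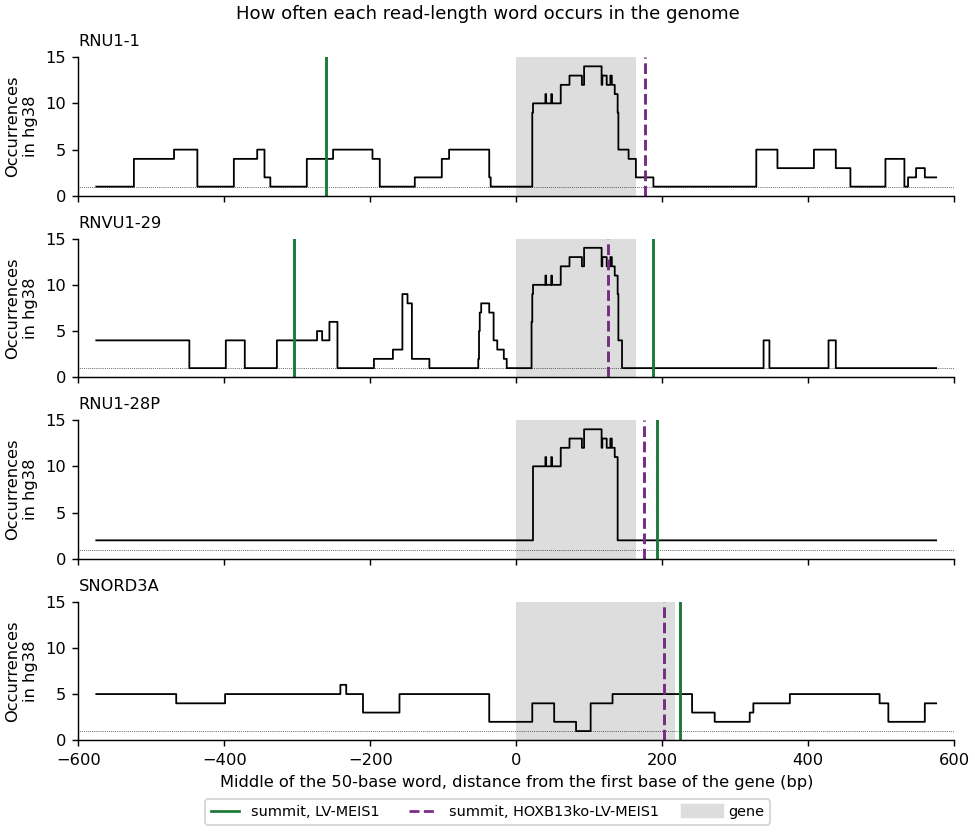
Number of occurrences in hg38 of the 50-base word centred at each position, against distance in bp from the first base, for RNU1-1, RNVU1-29, RNU1-28P and SNORD3A; grey marks the gene, solid green lines LV-MEIS1 summits and dashed purple lines HOXB13ko-LV-MEIS1 summits. Words inside the U1 gene occur 10 to 14 times, those in the first 200 bp after the RNVU1-29 gene once, and those of the RNU1-28P flanks 2 times.

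Further U1 copies that differ from RNU1-1 in sequence also held peaks. Apart from the 9 identical copies, 12 further U1 copies on the chromosomes, 79.7% to 99.4% identical to RNU1-1 over the aligned part, held a peak within 1 kb, 10 of them in LV-MEIS1 cells and 11 in HOXB13ko-LV-MEIS1 cells. These are mostly variant U1 genes, which code for U1 RNAs with base changes. An upstream LV-MEIS1 summit, 229 to 331 bp before the first base, was present at 9 copies, and all 11 HOXB13ko-LV-MEIS1 summits lay 55 to 149 bp after it. At 8 copies an upstream LV-MEIS1 summit and a downstream HOXB13ko-LV-MEIS1 summit occurred together. TGACATCA began 230 to 260 bp upstream in 11 of the 12, all but RNU1-108P in an intron of TEX14. It was present in 2.61% of RefSeq promoter windows, which start 250 bp before the gene start and so miss part of that range. Only copies with a peak were searched for the word, so no share over all U1 copies is given. TGACA lay within 50 bp of 4 of the 9 upstream LV-MEIS1 summits and at most 81 bp from the others. RNVU1-2A and RNVU1-28 held the word without an LV-MEIS1 peak. Several of these copies were as repeated as the identical ones, with 0% unique words around the HOXB13ko-LV-MEIS1 summits of RNVU1-2A and RNVU1-28 and around the upstream LV-MEIS1 summits of RNVU1-31 and RNVU1-7.

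Among the copies found by sequence, RNVU1-2 had the most nearly unique flanks with this pair of positions. Its LV-MEIS1 summit, 229 bp upstream with a pileup of 22.6, was surrounded by 95.5% unique words, and its HOXB13ko-LV-MEIS1 summit, 92 bp downstream with 26.6, by 92.6%. RNVU1-8, a variant gene outside those copies, also had this pair, with more unique words. Its LV-MEIS1 summit lay upstream, at -248 bp from its named start, with a pileup of 40.95, 99.7% unique words and TGACA within 50 bp. Its HOXB13ko-LV-MEIS1 summit lay 104 bp downstream with 100% unique words and a lower pileup, 23.7. RNVU1-30 had summits 330 bp upstream (31.7) and 55 bp downstream (32.9), the latter with 94.9% unique words and, alone among the 11 downstream HOXB13ko-LV-MEIS1 summits, TGACA within 50 bp. RNVU1-6, with 86.1% and 99.7% unique words, was an exception. Its LV-MEIS1 summit lay 19 bp after the first base and its HOXB13ko-LV-MEIS1 summit 112 bp after it. Its LV-MEIS1 pileup of 55.8 (49.6 to 62.6, 289 reads) was above those of all 9 identical copies in that list and its HOXB13ko-LV-MEIS1 pileup was 58.1 (49.3 to 67.9). The tallest HOXB13ko-LV-MEIS1 peaks among these copies were on RNVU1-14, with 69.5 against 32.3 in LV-MEIS1 cells, on RNVU1-27, with 68.0 against 30.3 upstream and 20.1 downstream, and on RNVU1-7, with 61.4 against 25.1 upstream and 18.7 downstream.

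**Figure D5:**
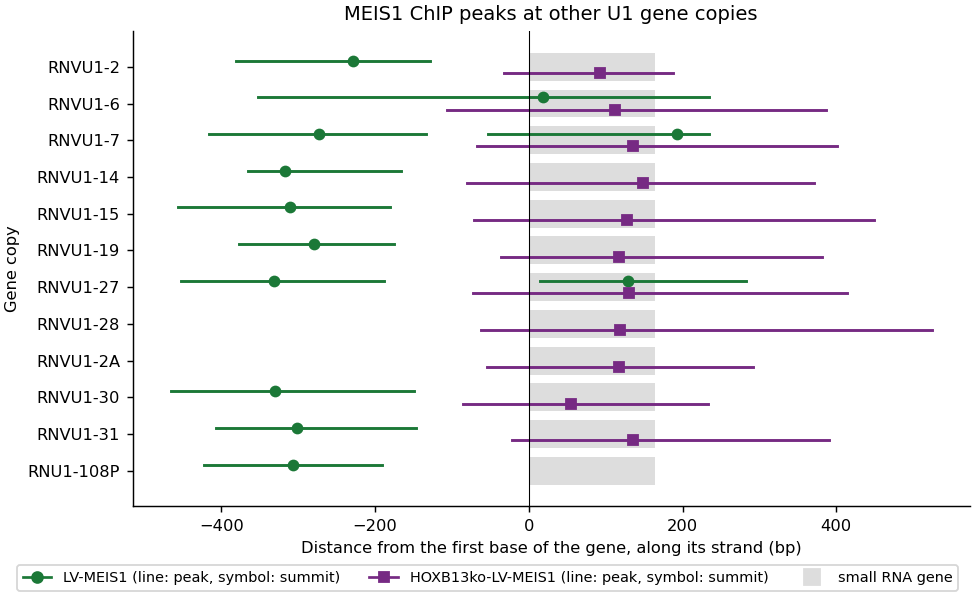
Extent (line) and summit (symbol) of peaks at the 12 other U1 copies, as distance in bp from the first base along the strand, with the gene in grey, LV-MEIS1 in green and HOXB13ko-LV-MEIS1 in purple. Upstream summits occur in LV-MEIS1 cells at 9 copies, and the 11 HOXB13ko-LV-MEIS1 summits all lie 55 to 149 bp downstream.

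A few member rows lay at none of the copies. There were 2 in LV-MEIS1 cells and 6 in HOXB13ko-LV-MEIS1 cells, 6.25 to 33.2 kb from the start site they were named for. In both lists a peak named for a U1 gene lay on an annotated asparagine tRNA, with a pileup of 38.8 in LV-MEIS1 cells and 35.9 in HOXB13ko-LV-MEIS1 cells. Another pair, at 24.5 and 41.0, lay in intergenic sequence with only unique words around the summit and TGACA within 50 bp. These were the only member rows with wholly unique words. The other 4 HOXB13ko-LV-MEIS1 rows had pileups of 50.3, 40.7, 24.4 and 23.7, the second on an annotated U1 repeat and the last 2 on LTR4 elements.

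Other small RNA genes were taken from lists of gene names. Of 18 other spliceosomal RNA genes, 7 had a peak in LV-MEIS1 cells (19 peaks) and 12 in HOXB13ko-LV-MEIS1 cells (29 peaks). Over all gene symbols of RefSeq the shares with a peak were 6.51% and 2.53%. Within 1 kb of the annotated start, 13 of 15 LV-MEIS1 summits and 21 of 24 HOXB13ko-LV-MEIS1 summits lay on the downstream side, beside 37.2% and 45.5% of all summits that near a start. RNU2-1, the gene of U2 RNA, which pairs with the branch point, accounted for 12 of the 19 and 16 of the 29 peaks at any distance. Its pileups were 16.03 to 29.2 in LV-MEIS1 cells and 17.8 to 70.3 in HOXB13ko-LV-MEIS1 cells. Its tallest peak in HOXB13ko-LV-MEIS1 cells ranked 73, level with the U1 peaks. Around that summit 25.9% of 50-base words were unique, and the median word occurred 12 times in hg38. Of 18 further small RNA genes with their own promoter, 9 had a peak in LV-MEIS1 cells (11 peaks) and 8 in HOXB13ko-LV-MEIS1 cells (8 peaks), with median pileup percentiles of 33.5 and 34.03. By name, 8 of 38 U1 variant genes had a peak in LV-MEIS1 cells (23 peaks) and 7 in HOXB13ko-LV-MEIS1 cells (14 peaks), with median percentiles of 54.4 and 89.6. Among the rows with variant names, 1 named RNVU1-19, 89790 bp from its start, ranked 40 in LV-MEIS1 cells with a pileup of 67.03. Among the 10 factors of small RNA promoters, such as the SNAPc subunits, 1 had a peak in LV-MEIS1 cells and 3 in HOXB13ko-LV-MEIS1 cells, none in the top 5% by pileup. Of 10 genes for U1 particle proteins, 0 and 1 had a peak, and of 8 genes for U3 particle proteins none did in either list.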

How the data were processed

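MEIS1 ChIP-seq of 2 CWR22Rv1 derivatives and an input library was analysed. Per the labels and file headers, the authors trimmed 50-base single-end reads (Trimmomatic 0.38), aligned them to hg38 with Bowtie2 at default settings, removed duplicates (Picard 2.18.10), and ran MACS2 2.1.2 on the merged immunoprecipitations per line against the input (extension to 200 bp, at most 1 tag a position, q threshold 0.01). HOMER 4.9.1 annotated the summits. The deposited values are the pileup signal scaled to the input library, the fold enrichment ratio over local input, −log10 p-values and −log10 q-values, and distances to start sites.

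Pileup was divided by the ratio of input to treatment tags (0.193 and 0.370) to recover reads, with exact Poisson 95% intervals and, for ratios, conditional exact intervals; these cover counting error only. With 200 bp extension and single tags, 400 reads is the ceiling at a summit. Copies were found with BLAST 2.17.0 (alignments of at least 100 bp) using RefSeq gene bounds, and named from GENCODE 44. A peak belonged to a copy if its summit lay within 1 kb of the first base. Words and 50-base occurrence counts were computed with Python 3.11.15 and pysam 0.24.0, and checked on simulated data. Named genes were all members, the genes of fixed lists at or above the 95th pileup percentile, and U1 variants with a peak at a U1 copy; RNU1-108P, RNVU1-30, the U2 range and the rows away from copies were named after their values were seen. The members and lists were chosen with earlier results of these data known. Alternatives are given in the closing section. The design was planned as description without tests, since each line has a single pooled list.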

Additional observations from a re-analysis of the deposited data

How the results depend on the processing

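Each of 6 quantities was recomputed per list for the peaks carrying a member name, under 80 alternatives in all, of which 71 stayed within the counting interval, within 1 SD over the member peaks or, for counts, within 1.5 times. These bounds are wide, with an SD over single peaks of 2453 bp in LV-MEIS1 and 8645 bp in HOXB13ko-LV-MEIS1 cells for the summit distance, so staying within them does not show stability. The median distance of the member summits from the named start in LV-MEIS1 cells, 193 bp, turned to -29.5 bp with −log10 q of at least 5. Adding RNVU1 names raised the member peaks from 13 to 36 in LV-MEIS1 cells and from 19 to 33 in HOXB13ko-LV-MEIS1 cells. Overlap with the other list fell from 92.3% to 61.5% (LV-MEIS1) and from 89.5% to 63.2% (HOXB13ko-LV-MEIS1) with summits within 100 bp, and became 100% in HOXB13ko-LV-MEIS1 cells within 1 kb of the named start or by copy, an alternative chosen after seeing the data. TGACA rose from 36.8% to 73.7% of HOXB13ko-LV-MEIS1 members anywhere within the peak, and TGACAG instead of TGACA lowered the LV-MEIS1 share from 76.9% to 46.2%. The causes were not tested. No paired analysis was possible because each line has a single pooled list. The pooled lists give no replicate error, and repeated sequence limits how far a pileup belongs to 1 copy.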
